A study of Mus musculus with 12 samples.

Results

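The effect of aspartame alone on liver gene expression was read from the 3 arrays of the ASP + TFA diet set against the 3 arrays of the TFA control diet, 6 of the 12 liver arrays of the series. Members were chosen by diet label only, and no expression value entered the choice. Both groups were male C57Bl/6J mice aged 20 weeks whose chow held 20% (w/w) partially hydrogenated shortening with 8.68% (w/w) trans fatty acids (TFA), so that the controls carried the trans fat load too. The ASP + TFA mice had 0.25 g/L of aspartame, a dipeptide sweetener, in their drinking water, while the TFA mice drank plain water. Dams were switched from chow to these diets at 6 weeks of age, 3 weeks before mating, and the offspring were weaned at 4 weeks onto the same diet, so that exposure covered gestation and lactation. The liver RNA of 5 mice was pooled for each array, and the 15 mice of a diet filled 3 pools. The remaining 6 arrays, of the MSG + TFA diet (0.75 g/L of monosodium glutamate) and the ASP + MSG + TFA diet (both additives), helped to estimate the spread between pools and gave a second measurement of aspartame in other mice.

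Aspartame is the methyl ester of aspartate and phenylalanine. It is split in the gut to these amino acids and methanol. The liver hydroxylates phenylalanine to tyrosine and breaks both down, passes aspartate nitrogen to the urea cycle, and oxidises methanol through formaldehyde and formate by enzymes of alcohol, aldehyde and folate metabolism. Sweet taste is sensed by a receptor dimer of the Tas1r family, which is expressed mainly outside the liver.

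Values are log2 intensities, and a gene value is the mean over the probe sets that name that gene alone. Differences are ASP + TFA minus TFA on the log2 scale with their standard error (SE), and a gene passed at an adjusted p under 0.05 over all 20422 genes. Since the livers were read in bulk, fewer cells of a type and less RNA per cell cannot be told apart. Array medians lay between 6.91 and 6.96. Of 10 hepatocyte markers, 9 were above the median level of all genes (6.76), and Alb, the serum protein albumin, ranged from 15.03 to 15.09 with TFA and from 15.04 to 15.14 with ASP + TFA. Ass1, a urea cycle enzyme read by 1 probe set, was dim at 4.33 to 5.09. Markers of 2 other tissues differed between pools, and where these transcripts came from was not tested. For 15 markers of the acinar pancreas the mean was 8.60 in ASP + TFA pool 3 against 5.94 and 6.12 in the other ASP + TFA pools and 6.03 to 7.23 in the TFA pools, and the mean of 16 skeletal muscle markers is given with the muscle genes. ASP + TFA pool 3 had the narrowest spread of gene values of the 12 arrays (SD 1.57 against 1.58 to 1.68), and the ASP + TFA pools correlated least with the arrays of their own diet (lowest r = 0.983).

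With aspartame 58 genes passed (0.284% of those tested), 23 of them higher (0.113%) and 35 lower (0.171%). In all 58 the 3 pools of one diet lay on one side of the 3 pools of the other. This is no added support, since the same arrays chose the genes. Of all genes, 8.48% were separated in the higher direction and 4.92% in the lower. Unnamed gene models and odour receptors made up 33 of the 58, 15 higher and 18 lower. The named ones were 8 that rose and 17 that fell. Of the genes that fell, 26 of 35 lay above the median level, and 17 of the 35 were read by a single probe set. Of the 23 that rose, 16 lay below that level, and 17 of the 23 were read by a single probe set. Among skeletal muscle markers that fell, Ttn, Tnnc2, Atp2a1, Myh1 and Myh2 lay below the median level and Acta1, Tnnt3, Ckm and Neb above it. At an unadjusted p under 0.05, 1361 genes (6.66%) were higher and 708 (3.47%) lower. The count depended on every pool compared: 7 genes passed without TFA pool 2, 13 without ASP + TFA pool 2, 21 without TFA pool 3, 25 without ASP + TFA pool 1, 26 without TFA pool 1, 37 without ASP + TFA pool 3, and also 36 when the first ASP + MSG + TFA pool was left out. Of the 37 without ASP + TFA pool 3, 9 were higher and 28 lower, and 26 were among the 58.

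Genes of skeletal muscle led the falls among named genes. Of the 35 genes that fell, 17 were named, and 9 of these were on a list of 16 skeletal muscle markers. Of all genes, 0.171% passed as lower. The list was chosen with earlier results of these data known. All 16 of these markers were lower in mean with aspartame, with a median difference of -0.94 against 0.02 for all genes, and in 13 the pools of the diets did not overlap (of all genes, 4.92% were separated in that direction and 8.48% in the other). Acta1, the actin of skeletal muscle fibres, stood at 8.01, 8.85 and 8.69 in TFA pools 1 to 3 and at 6.55, 6.88 and 6.70 in the ASP + TFA pools. Every ASP + TFA pool was thus below every TFA pool, and the fall was 3.49-fold (difference -1.80, SE 0.32, adjusted p = 0.0353, limma). Titin (Ttn), the giant spring protein of the sarcomere, was read by 320 probe sets, of which 300 moved in the same direction. Its pools were 6.44, 7.10 and 6.79 with TFA and 5.48, 5.49 and 5.66 with ASP + TFA, a fall of 1.23 (SE 0.18, adjusted p = 0.0124). The ASP + TFA pools were close to each other and the TFA pools spread more widely.

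Of the fast troponins, which make contraction depend on calcium, Tnnt3 and Tnnc2 fell and Tnni2 did not pass. Tnnt3 went from 7.69, 8.18 and 7.97 to 6.42, 6.51 and 6.87 (difference -1.35, SE 0.22, adjusted p = 0.0262). Tnnc2, the calcium-binding subunit, went from 6.76, 7.32 and 7.13 to 5.91, 5.80 and 6.09 (difference -1.13, SE 0.17, adjusted p = 0.0170). The calcium pump of muscle reticulum, Atp2a1, fell by 1.10 and the fast myosin heavy chains Myh1 and Myh2 by 1.00 and 0.68. Among enzymes of muscle energy supply, the creatine kinase Ckm (7.61, 8.10 and 7.98 with TFA, 6.79, 7.04 and 7.23 with ASP + TFA) fell by 0.87, the muscle glycogen phosphorylase Pygm by 0.54 and the muscle enolase Eno3 by 0.49. Proteins that order the sarcomere were also lower: nebulin (Neb) fell by 0.74, myotilin (Myot) by 0.76 and the titin-binding ankyrin protein Ankrd23 by 0.88. The small heat shock protein Cryab, abundant in muscle, fell by 0.43. Adjusted p for these 10 genes, from Atp2a1 to Cryab, lay between 0.0211 (Pygm) and 0.0478 (Cryab). Read by the brightest probe set alone, 0 genes passed, Myh2 and Neb were higher (0.27 and 0.02), and the differences shrank to -0.78 for Acta1, -0.55 for Ttn, -0.39 for Tnnc2, -0.20 for Atp2a1, -0.14 for Myh1, -0.13 for Tnnt3 and -0.09 for Cryab. With only brighter probe sets these 9 genes and Pygm, Ckm, Eno3, Myot and Ankrd23 lost the call. Of the markers that did not pass, Myl1, a fast myosin light chain, had the largest difference (-1.67, SE 0.35, adjusted p = 0.0699), followed by the oxygen-binding myoglobin Mb (-1.16, adjusted p = 0.0846) and the heavy chain Myh4 (-0.74, adjusted p = 0.0613). Actn3 differed by -0.39 with separated pools. The pools overlapped for the fast troponin I Tnni2 (-0.31), Mylpf (-0.18) and the calcium buffer Pvalb (-0.04). Muscle forms of cytochrome oxidase subunits were lower in all ASP + TFA pools without passing, Cox8b (-0.71, adjusted p = 0.273) and Cox7a1 (-0.45, adjusted p = 0.146).

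Averaged over the 16 markers, the TFA pools stood at 6.69, 7.18 and 6.96 and the ASP + TFA pools at 5.94, 6.03 and 6.15. The MSG + TFA pools were at 6.46, 5.96 and 5.99 and the ASP + MSG + TFA pools at 6.20, 6.55 and 6.11. The 9 pools of the diets with an additive therefore all lay below the lowest TFA pool, and the median marker differed by -0.80 between MSG + TFA and the same TFA arrays. Whether muscle tissue in the pools had a part in these differences was not tested.

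**Figure D1:**
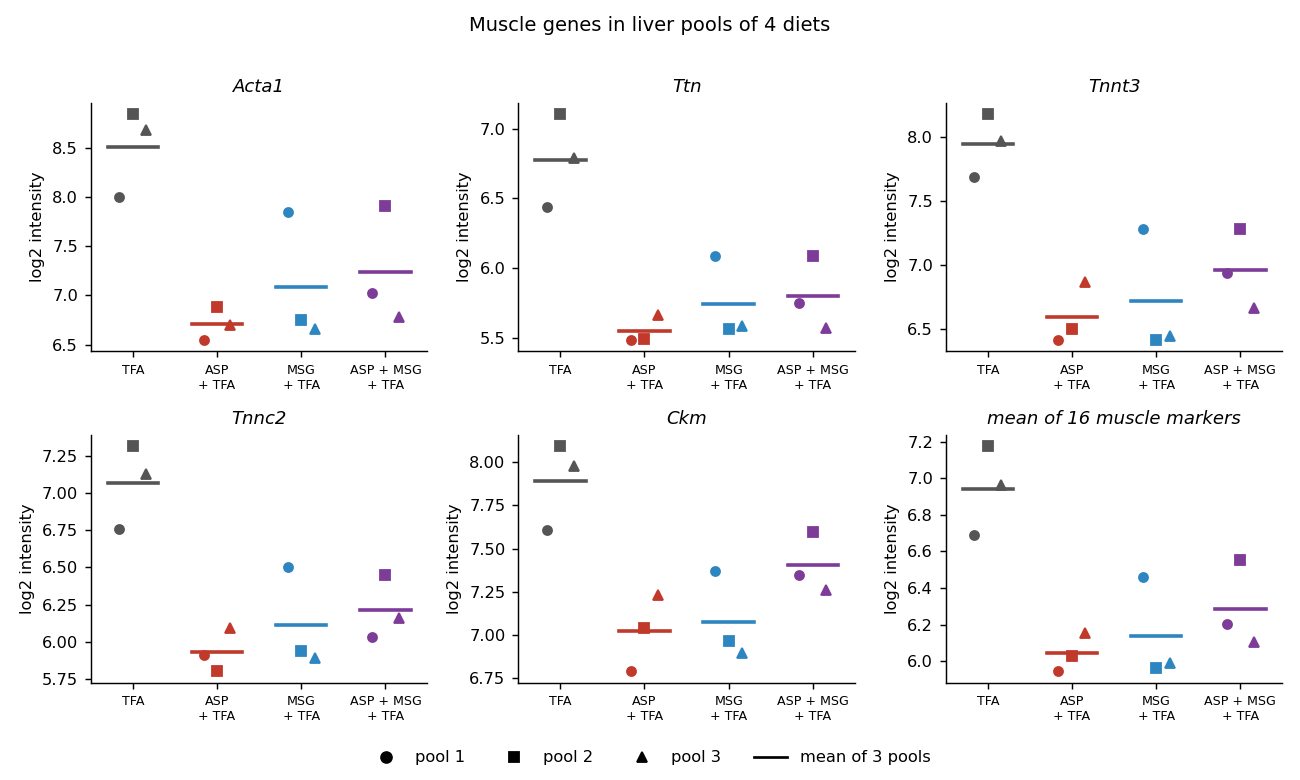
Log2 intensity of 5 muscle genes and of the mean of 16 skeletal muscle markers in each liver pool, by diet; symbols are pools and lines are means of 3 pools. The TFA pools are the highest in each panel, from 6.69 to 7.18 for the marker mean against 5.94 to 6.15 in the ASP + TFA pools.

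Promoter windows from RefSeq (GRCm38.p6) were found by symbol for 16 of the 25 named genes that passed, among them 7 of the 9 muscle markers. The 250 bases before the start of transcription are shown for 4 muscle genes that fell together, since they hold the E-box hexamer CAGCTG, the form bound by myogenic factors such as MyoD. It reads the same on both strands, and it is in capitals.
Acta1, chr8:123894776-123895025, minus strand: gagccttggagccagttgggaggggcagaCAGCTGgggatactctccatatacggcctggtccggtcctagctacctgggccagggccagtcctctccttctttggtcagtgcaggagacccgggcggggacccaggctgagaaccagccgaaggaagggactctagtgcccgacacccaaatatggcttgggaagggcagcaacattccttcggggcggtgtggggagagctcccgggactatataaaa
Ckm, chr7:19410844-19411093, plus strand: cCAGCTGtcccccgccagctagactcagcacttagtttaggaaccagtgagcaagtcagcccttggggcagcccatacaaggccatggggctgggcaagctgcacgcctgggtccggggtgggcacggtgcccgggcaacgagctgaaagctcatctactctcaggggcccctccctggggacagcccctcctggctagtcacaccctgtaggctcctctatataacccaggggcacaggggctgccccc
Atp2a1, chr7:126463074-126463323, minus strand: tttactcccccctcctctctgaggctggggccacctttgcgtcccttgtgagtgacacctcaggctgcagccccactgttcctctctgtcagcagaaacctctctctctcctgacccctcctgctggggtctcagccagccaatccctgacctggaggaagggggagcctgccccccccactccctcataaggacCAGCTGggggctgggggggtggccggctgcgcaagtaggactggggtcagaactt
Pygm, chr19:6384158-6384407, plus strand: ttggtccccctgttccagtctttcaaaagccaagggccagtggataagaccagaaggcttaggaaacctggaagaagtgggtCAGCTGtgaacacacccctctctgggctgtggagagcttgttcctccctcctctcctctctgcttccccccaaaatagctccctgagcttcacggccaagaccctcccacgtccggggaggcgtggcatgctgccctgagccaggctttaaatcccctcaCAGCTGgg
The first base of the hexamer lay 221 bases before the start in Acta1, 249 in Ckm, 55 in Atp2a1, and 168 and 8 in Pygm. Among the 7 muscle markers with a window, 3 held it, and so did 13.0% of all 32851 windows of this length.

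The other named genes that fell were few. Dleu2, a long non-coding RNA that hosts the miR-15a and miR-16-1 microRNAs, stood at 8.87, 8.95 and 8.53 in the TFA pools and 8.07, 7.96 and 8.02 in the ASP + TFA pools (difference -0.76, SE 0.11, adjusted p = 0.0124, 1 probe set). The ASP + TFA pools were tight, and the TFA pools spread almost as widely as the gap between the diets. Hnrnpa1l2, a copy of the RNA-binding protein gene Hnrnpa1, fell by 0.63 (adjusted p = 0.0370), and its probes may share signal with its parent gene. Apold1, a protein of vessel endothelium, went from 7.48, 7.58 and 7.71 to 7.13, 7.12 and 7.07 (difference -0.48, adjusted p = 0.0376). Among genes that did not pass, Rnu5g, a U5 small nuclear RNA of the spliceosome, differed by -0.74 (adjusted p = 0.0559), and the chemokine Cxcl9, which draws T cells, stood at 8.81, 9.29 and 9.34 with TFA and 8.22, 8.47 and 8.53 with ASP + TFA (difference -0.74, SE 0.17, adjusted p = 0.119). Among the 12 lowest differences of brighter genes were also the oocyte homeobox gene Obox3 (-0.90) and Tdpoz2 (-0.97), each read by 1 probe set. Genes above the median level with separated pools and an unadjusted p under 0.01 made up 1.15% of brighter genes in the higher and 1.53% in the lower direction.

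Among the named genes that rose, the smallest p belonged to Krtap31-1, a keratin-associated protein of hair. It stood at 6.00, 6.03 and 6.04 in the TFA pools and 6.87, 6.94 and 6.98 in the ASP + TFA pools (1.88-fold, difference 0.91, SE 0.10, adjusted p = 0.00526). Its pools hardly varied within a diet. Tas2r109, a bitter taste receptor, went from 5.95, 6.00 and 6.05 to 6.50, 6.49 and 6.68 (difference 0.56, SE 0.08, adjusted p = 0.0124), and Csnk2a1-rs2, a copy of the casein kinase 2 catalytic subunit gene, from 5.34, 5.33 and 5.21 to 6.09, 5.84 and 6.07 (difference 0.70, SE 0.09, adjusted p = 0.00830). The largest rise was that of the histone H3 gene Hist1h3a, from 5.75, 5.04 and 5.25 to 7.26, 6.73 and 7.42 (3.46-fold, difference 1.79, SE 0.30, adjusted p = 0.0295). Of 40 histone genes it alone passed, and their median difference was 0.02. Histone H3 genes are near-identical in their coding sequence, so that this single probe set may read several of them. Ucn2, the peptide urocortin 2 of the corticotropin-releasing hormone family, went from 6.39, 6.35 and 6.59 to 7.00, 7.03 and 7.17 (difference 0.62, SE 0.10, adjusted p = 0.0295). The beta-defensin Defb11 rose by 0.50, Magea8, a testis antigen of tumours, by 0.45, and Sprr2j-ps, a pseudogene of the small proline-rich proteins, by 0.59. Krtap31-1, Tas2r109, Defb11, Magea8 and Sprr2j-ps belong to families of skin, taste cells, mucosa or testis, and all 8 risers but Ucn2 lay below the median level of all genes in these livers.

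**Figure D2:**
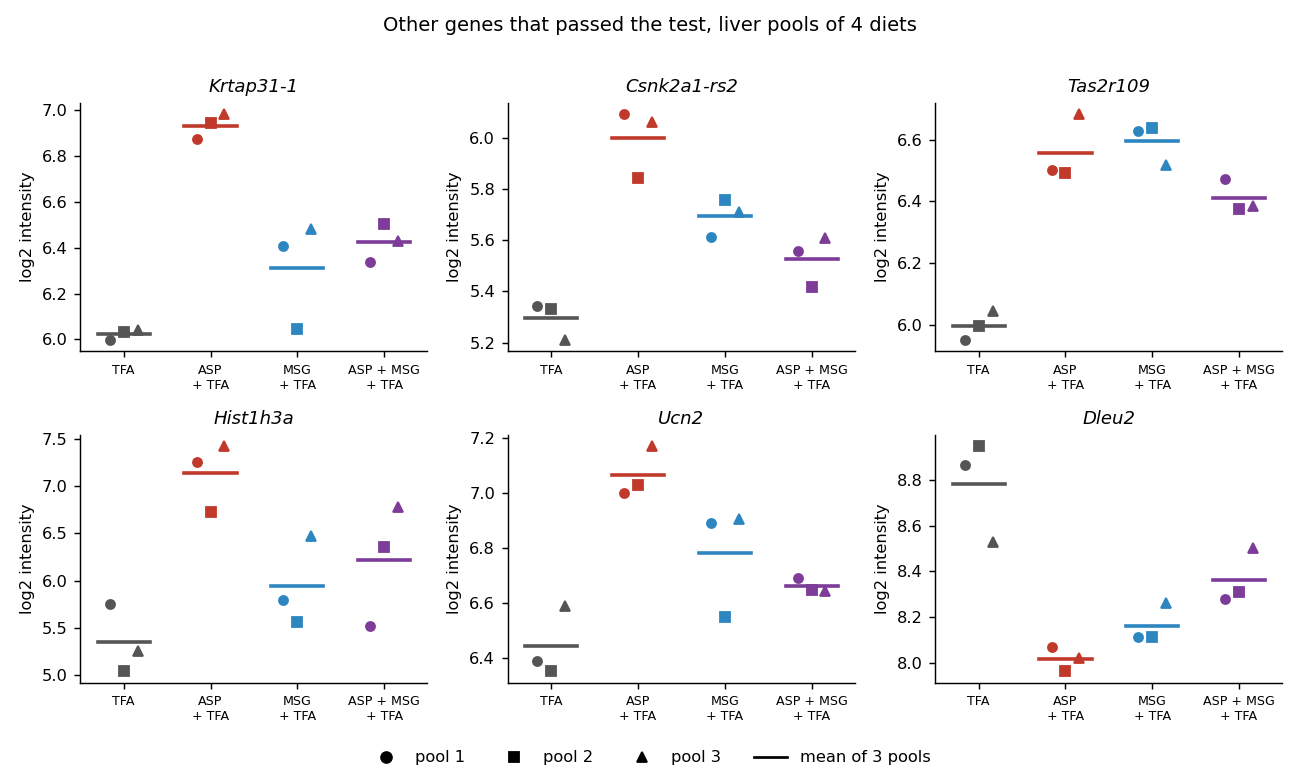
Log2 intensity of 5 genes that rose and of Dleu2, which fell, in each liver pool by diet; symbols are pools and lines are means of 3 pools. For Krtap31-1 the TFA pools lie at 6.00 to 6.04 and the ASP + TFA pools at 6.87 to 6.98, and the other 6 pools at 6.04 to 6.50.

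The 250 bases before the start are also shown for Krtap31-1 and Tas2r109, named risers of small p for which a window was found, with the core TATA box hexamer TATAAA (searched on both strands) in capitals.
Krtap31-1, chr11:99907670-99907919, plus strand: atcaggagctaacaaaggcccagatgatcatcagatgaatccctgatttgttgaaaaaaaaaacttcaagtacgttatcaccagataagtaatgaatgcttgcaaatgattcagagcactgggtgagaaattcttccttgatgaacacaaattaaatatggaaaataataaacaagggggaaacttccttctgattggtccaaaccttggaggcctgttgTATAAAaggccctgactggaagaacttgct
Tas2r109, chr6:132980966-132981215, minus strand: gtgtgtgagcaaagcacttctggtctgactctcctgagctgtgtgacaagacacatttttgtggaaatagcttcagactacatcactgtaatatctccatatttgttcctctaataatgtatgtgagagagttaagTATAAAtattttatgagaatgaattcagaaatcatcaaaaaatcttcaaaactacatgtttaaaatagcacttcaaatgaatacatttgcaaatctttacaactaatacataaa
The hexamer began 30 bases before the start in Krtap31-1 and 114 in Tas2r109, and 12.4% of all windows held it.

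Families of genes that are scarcely expressed in liver were more often higher than lower with aspartame, as were, to a lesser degree, all genes (57.3% higher, median 0.02). Of 982 olfactory receptors, 757 were higher with a median difference of 0.14. Before adjustment 218 were higher and 14 lower with p under 0.05 (6.66% and 3.47% of all genes). By the adjusted test 5 rose and 1 fell. Bitter taste receptors had a median of 0.20 (29 of 34 higher, 1 passed), keratin-associated proteins 0.16 (35 of 45, 1 passed), beta-defensins 0.14 (35 of 43, 1 passed) and vomeronasal receptors 0.10 (128 of 184, 1 passed). The single olfactory receptor that fell, Olfr420, stood at 7.87, 7.99 and 8.13 with TFA and 7.32, 7.36 and 7.23 with ASP + TFA, and the riser with the smallest p, Olfr952, at 6.89, 6.84 and 7.11 against 7.71, 7.66 and 7.72. The vomeronasal receptor V1rb3 rose by 0.55 (adjusted p = 0.0314). Members that did not pass included Vmn2r116 (0.98, adjusted p = 0.0646), Krtap4-7 (0.60, adjusted p = 0.0545), Krtap10-10 (0.51, adjusted p = 0.142), Defb33 (0.58, adjusted p = 0.0545), Defb23 (0.49, adjusted p = 0.112) and Tas2r113 (0.49, adjusted p = 0.245).

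Between MSG + TFA and the same TFA arrays the medians of these families were 0.15, 0.11, 0.12, 0.12 and 0.11 for olfactory, bitter, keratin-associated, beta-defensin and vomeronasal genes. Aspartame in mice that also drank MSG, on the other 6 arrays, gave -0.04, 0.05, -0.04, 0.05 and -0.02 in the same order.

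The difference also varied with signal level over all genes, by less than in these families. Genes in level groups 4 and 5 of 10, at 6.14 to 6.76, where the median levels of the olfactory, bitter and beta-defensin genes lay, had medians of 0.04 and 0.03. Among 2043 genes of the lowest level the median difference was 0.06 and 68.5% were higher, whereas among 2042 genes in the ninth of 10 level groups it was -0.01 and 47.9% were higher. The pools differed in this respect. In the lowest group the median of ASP + TFA pool 3 was 0.13 above the TFA mean, that of pool 2 was 0.04 above and that of pool 1 was -0.01. In the ninth group the order was turned, with -0.11 in pool 3, -0.00 in pool 2 and 0.10 in pool 1. Without ASP + TFA pool 3 the median of the olfactory receptors was 0.08, that of the vomeronasal receptors 0.03, that of the beta-defensins 0.06, that of the keratin-associated proteins 0.09 and that of the bitter taste receptors 0.12, all still positive, and all 5 stayed positive when arrays were centred on their medians or quantile-normalized again.

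**Figure D3:**
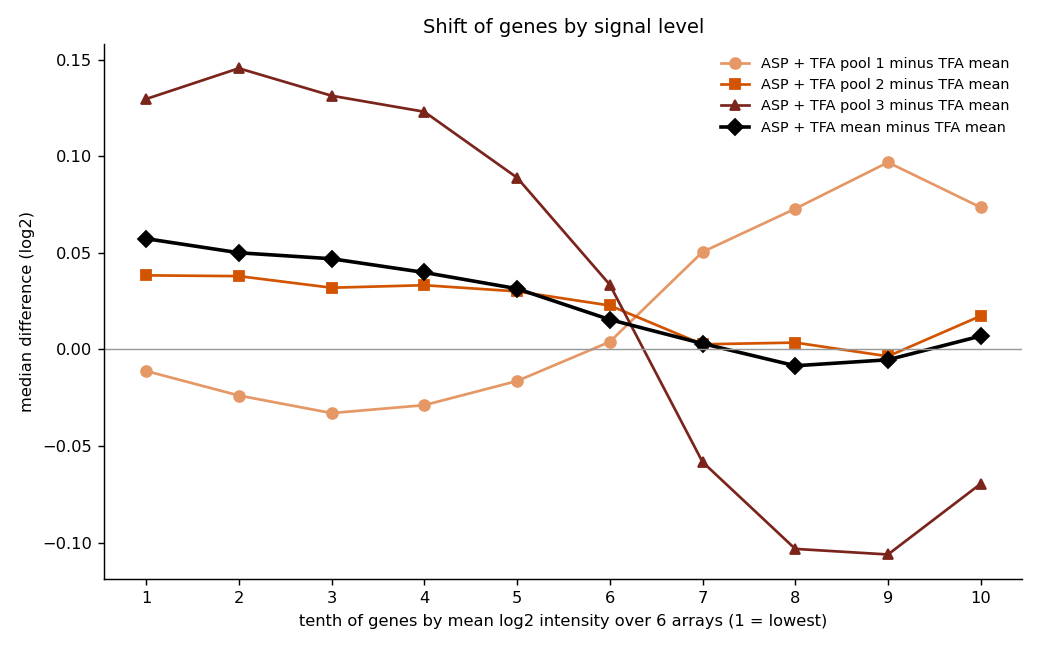
Median log2 difference from the mean of the TFA pools in 10 equal groups of genes, for each ASP + TFA pool and for their mean. Genes were ordered by mean log2 intensity over all 12 arrays (the axis label names 6). Pool 3 runs from 0.13 in the dimmest group to -0.11 in the ninth, and pool 1 from -0.01 to 0.10.

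Among named genes above the median level with separated pools and an unadjusted p under 0.01, the largest rise in mean was that of Cyp2b10, a cytochrome P450 that is induced by foreign compounds through the receptor CAR. It stood at 8.39, 8.45 and 8.39 in the TFA pools and 10.81, 10.03 and 9.19 in the ASP + TFA pools. Every ASP + TFA pool was higher, but they spread over more than the difference of the lowest of them from TFA, and the gene did not pass (3.04-fold, difference 1.60, SE 0.45, adjusted p = 0.214). Its relative Cyp2b9 was at 8.04, 7.67 and 8.13 against 8.02, 9.45 and 9.72 (difference 1.11, adjusted p = 0.371), with ASP + TFA pool 1 at the level of the TFA pools. Cyp2b13, the third of these near-identical genes, differed by 0.27, and Cyp1a1 by 0.20. Over 23 drug-metabolising P450s and their receptors the median difference was 0.10 and 16 were higher. By limma 5 were higher at an unadjusted p under 0.05 (6.66% of all genes) and 0 passed.

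Cdkn1a, the p21 inhibitor of the cell cycle, stood at 6.40, 6.00 and 6.27 in the TFA pools and 7.40, 7.20 and 7.35 in the ASP + TFA pools (2.13-fold, difference 1.09, SE 0.24, adjusted p = 0.0862). All 6 of its probe sets were higher. Fabp5, a fatty acid binding protein, went from 7.71, 7.66 and 7.72 to 8.58, 8.36 and 8.24 (difference 0.70, SE 0.16, adjusted p = 0.124). Atp5j, a subunit of ATP synthase, differed by 0.64 (adjusted p = 0.0596, 1 probe set), and the transcription factor Zbtb16, which glucocorticoids induce, by 0.55 (adjusted p = 0.266), both with separated pools. The remaining genes among the 12 largest positive differences under these same limits were Cyp2d40 (0.60), a P450 of the Cyp2d cluster, Zfp280b (0.54), a zinc finger protein, the deubiquitinase Dub1a (0.57), the late cornified envelope protein Lce3f (0.60) and the lens crystallin Crygf (0.56), none of which passed.

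**Figure D4:**
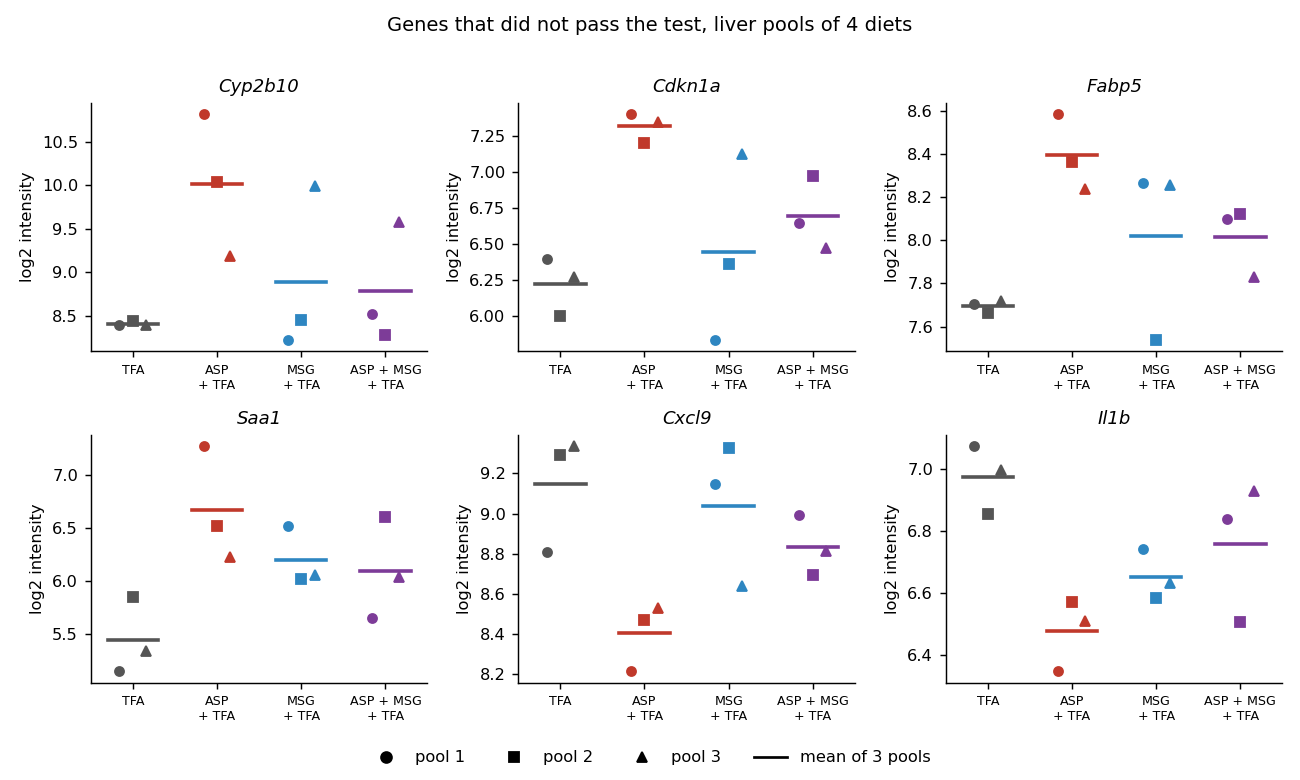
Log2 intensity of 6 genes that did not pass in each liver pool, by diet; symbols are pools and lines are means of 3 pools. Cyp2b10 spreads from 9.19 to 10.81 in the ASP + TFA pools above TFA pools at 8.39 to 8.45, and Cdkn1a lies at 7.20 to 7.40 against 6.00 to 6.40.

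Genes that handle the products of aspartame, taken with those of sweet and umami taste, differed little. Of 90 in all, 0 passed by limma (0.284% of all genes did). With p under 0.05 before adjustment, 8 were higher, 2 of them taste genes, and 0 lower, against 6.66% and 3.47% of all genes. Of 13 genes of phenylalanine and tyrosine breakdown, 6 were higher and 7 lower with a median difference of -0.00 and a range of -0.13 to 0.11, and 0 had an unadjusted p under 0.05. The smallest p belonged to the pterin dehydratases Pcbd2 (-0.13, SE 0.09) and Pcbd1 (-0.11, SE 0.08), which recycle the cofactor of phenylalanine hydroxylation. Of 20 genes of methanol, formaldehyde and formate handling, 12 were higher with a median of 0.02, a range of -0.16 to 0.17 and 0 at an unadjusted p under 0.05. The smallest p were those of the glycine methyltransferase Gnmt (13.19, 13.15 and 13.24 with TFA, 13.07, 13.02 and 13.09 with ASP + TFA, difference -0.14) and the formiminotransferase Ftcd (0.17), which carries single carbons to folate.

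For aspartate metabolism and the malate-aspartate shuttle, 13 of 19 genes were higher (median 0.03) and 1 had an unadjusted p under 0.05, the cytosolic malate dehydrogenase Mdh1 (0.18, SE 0.08, adjusted p = 0.434). Asparagine synthetase (Asns), which uses aspartate, stood at 7.54, 7.27 and 7.50 with TFA and 7.15, 7.26 and 6.30 with ASP + TFA. Its mean difference of -0.53 (adjusted p = 0.587) rested mainly on ASP + TFA pool 3. Urea cycle genes had a median of 0.07 (6 of 8 higher), with the carrier Slc25a2 (0.28) and the enzyme Otc (-0.11) first by p. Of 23 amino acid and dipeptide carriers, 18 were higher (median 0.07), 4 at an unadjusted p under 0.05. These 4, namely Slc38a1 (0.26), the glutamate and aspartate carrier Slc1a1 (0.24), Slc6a19 (0.22) and Slc6a18 (0.21), were dim genes at 5.26 to 6.10. Sweet and umami receptors and their signalling genes were dim too, with a median difference of 0.13 over 7 genes. Tas1r2, a subunit of the sweet receptor whose human form binds aspartame, stood at 5.51, 5.70 and 5.50 with TFA and 5.93, 5.75 and 5.82 with ASP + TFA (difference 0.26, adjusted p = 0.313), and the channel Trpm5 differed by 0.20.

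In the other metabolic lists 0 genes passed by limma. Beside those of the respiratory chain, 4 of 130 genes were higher and 4 lower with p under 0.05 before adjustment (6.66% and 3.47% of all genes). Cholesterol synthesis and uptake was lower in 18 of 20 genes with a median of -0.17, led by the sterol demethylase Cyp51 (9.43, 9.46 and 9.53 with TFA, 9.42, 8.94 and 8.68 with ASP + TFA, difference -0.46, adjusted p = 0.316) and the sterol oxidase Sc4mol (-0.49, adjusted p = 0.476). The list mean was 9.79, 9.57 and 9.19 in ASP + TFA pools 1 to 3 against 9.60 to 9.75 in the TFA pools, and without ASP + TFA pool 3 its median was -0.00. Fatty acid synthesis had a median of -0.02, with the desaturase Scd2 at -0.36 and the lipase-related Pnpla3 at 0.24. PPAR alpha targets of fatty acid breakdown had a median of 0.03, with the lipase inhibitor Angptl4 at 0.31 and Creb3l3 at 0.17. Bile acid genes had a median of 0.03, with the side chain hydroxylase Cyp27a1 at 0.23 and Cyp7a1, the rate-limiting enzyme of bile acid synthesis, at -0.41. Glucose production and glycolysis had a median of 0.00, with the lactate dehydrogenase Ldha at 0.23 and pyruvate carboxylase (Pcx) at 0.16. Glycogen genes had a median of 0.03, with the phosphatase subunit Ppp1r3b at 0.14 and Ugp2 at -0.14. Peroxisome biogenesis had a median of 0.00, with Pex11a at 0.27 and Pex10 at -0.10, and 90 genes of the mitochondrial respiratory chain had a median of -0.01, with Cox7b2 at 0.40 and p under 0.05 before adjustment in 3 higher and 3 lower.

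Lists of inflammation and stress held larger single differences, and of 130 genes 0 passed by limma (0.284% of all genes did). With p under 0.05 before adjustment, 4 were higher and 13 lower, against 6.66% and 3.47% of all genes. Of 24 acute phase genes, 22 were higher with a median of 0.16, and Saa1, a serum amyloid read by 1 probe set, stood at 5.14, 5.85 and 5.33 with TFA and 7.28, 6.53 and 6.22 with ASP + TFA (difference 1.24, SE 0.28, adjusted p = 0.0973). The cytokine Il1b went the other way, from 7.07, 6.85 and 7.00 to 6.35, 6.57 and 6.51 (difference -0.50, SE 0.11, adjusted p = 0.100). Interferon-stimulated genes were lower in 15 of 21 (median -0.07), with Irf9 at -0.25 and Gbp2 at -0.28. Kupffer cell markers (named, like Ass1, after their values were seen), of the resident macrophages of liver, were lower in 5 of 6 (median -0.20), with the complement gene C1qa at -0.41, Vsig4 at -0.25 and Emr1 at -0.29. The mean of the 6 was 8.97, 8.99 and 8.94 in the TFA pools and 8.87, 8.85 and 8.64 in the ASP + TFA pools. Immediate early genes ranged from -0.45 to the 1.09 of Cdkn1a, with Zfp36 at 0.27, Btg2 at -0.32 and Junb at -0.28 next to it by p. The haem oxygenase Hmox1 differed by -0.41 and the glutathione transferase Gstm1 by 0.31 within NRF2 targets of median -0.01. Heat shock proteins (Dnajb1 at -0.52, Dnajb4 at -0.19) and the unfolded protein response (Ddit3 at -0.27, Edem1 at 0.15) had medians of -0.01 and 0.04.

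Genes of general cell machinery were near 0 as lists. Cytosolic ribosomal proteins were listed by the symbols Rpl and Rps. The 81 genes so found also include kinases such as Rps6ka1, and Rps19bp1, which are not ribosomal proteins. Before adjustment 12 of the 81 were lower and 4 higher with p under 0.05 (3.47% and 6.66% of all genes). The median of the 81 was -0.02. The smallest p belonged to Rps18, at 10.89, 10.96 and 10.96 with TFA and 10.49, 10.31 and 10.63 with ASP + TFA (difference -0.46, SE 0.10, adjusted p = 0.0951), followed by Rpl7 (-0.32), Rps21 (-0.36) and Rpl36a (-0.40). Ribosomal protein genes have many processed copies, so that their probes may read several. RNA polymerase II and general factors had a median of -0.01, with Gtf2f1 at -0.30, Gtf2h1 at -0.32 and Gtf2b at -0.27. The proteasome had a median of 0.03 (Psma5 at 0.22, Psmd12 at -0.18, Psmb5 at 0.18), aminoacyl-tRNA synthetases 0.02 (Yars at -0.34, Sars at 0.10), the cell cycle 0.01 (Mcm5 at -0.22, Cdkn3 at 0.16) and the circadian clock 0.02 (Npas2 at 0.32, Gm129 at 0.36). Blood vessel genes had a median of -0.01 (Notch1 at 0.23, Nrp2 at 0.19). Among the other histone genes Hist1h4f differed by -0.27, Hist1h4k by 0.46 and Hist1h3d by 0.43. The study names its liver genes mostly for both additives together against TFA, a comparison other than aspartame alone. Of 34 such genes, a list chosen on these samples and so no independent evidence, 24 were higher with aspartame alone. Their median was 0.05 and 0 passed by limma, with 1 higher at an unadjusted p under 0.05. The lipoprotein receptor Lrp1 (0.37, adjusted p = 0.352) and the transporter Abcb4 (0.15) were among the smallest p.

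Single probe sets, which read about an exon each, were tested with a 1.4-fold minimum as well. Of 212138, 2 rose (0.000943%) and 18 fell (0.00849%), but 0 passed in either direction without TFA pool 2, TFA pool 3 or any single ASP + TFA pool (limma; before adjustment, over all arrays, 9324 were higher and 8303 lower at 0.05 and 1.4-fold). Titin gave 13 of the 18, with falls from -3.38 to -1.60, and Atp2a1 (-2.73) and Tnnc2 (-1.98) gave 1 each. The others were 1 of 26 probe sets of the cardiac myosin heavy chain Myh6 (-1.72), 1 of 31 of the phosphatase Ptprg (-1.68) and 1 of 20 of Efcab5 (-1.45), whose gene means did not pass (adjusted p = 0.909, 0.997 and 0.801). The largest rise was 1 of 16 probe sets of Slc6a18, an amino acid carrier known from kidney. It stood at 5.65, 5.37 and 5.43 with TFA and 7.30, 7.29 and 7.61 with ASP + TFA (difference 1.92, SE 0.16, adjusted p = 0.0136), while the gene mean differed by 0.21 with 9 of the 16 probe sets higher. The other was 1 of 12 probe sets of Coq7, a hydroxylase of ubiquinone synthesis, at 7.10, 7.07 and 7.20 against 8.52, 8.43 and 8.99 (difference 1.53, SE 0.18, adjusted p = 0.0414), and 6 of the 12 were higher.

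Aspartame was measured a second time in mice that also drank MSG, on arrays that share no sample with the comparison above. There, 15 of the 58 genes had the same sign (25.9%, against 52.1% of all genes), and 0 of the 58 passed by limma (0.0049% of all genes did), with 9 at an unadjusted p under 0.05 (6.14% of all genes), of which 2 had the same sign. Of the 23 that rose, 10 were also higher, and their median difference was -0.05. Of the 35 that fell, 5 were also lower, with a median of 0.10. Acta1 stood at 7.03, 7.92 and 6.78 in the ASP + MSG + TFA pools and 7.85, 6.75 and 6.66 in the MSG + TFA pools (difference 0.16), and 1 of the 16 muscle markers was lower. Krtap31-1 differed by 0.11, Hist1h3a by 0.27, Cyp2b10 by -0.10 and Cdkn1a by 0.26, whereas Cyp2b9 differed by 1.09, close to its 1.11 without MSG. The interaction, the difference between these 2 effects of aspartame, passed for 14 genes (0.0686%), 11 of them among the 58. It subtracts the effect without MSG, and it was opposite in sign to that effect in 15328 of all 20422 genes. The sign was opposite in all 58, each with an unadjusted p under 0.05 by limma (7.39% of all genes). Since the interaction uses the same 6 arrays that chose the 58 genes, these counts are a description. Among the 34 liver genes the study names and the aspartame-related lists the medians with MSG lay between -0.05 and 0.08.

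**Figure D5:**
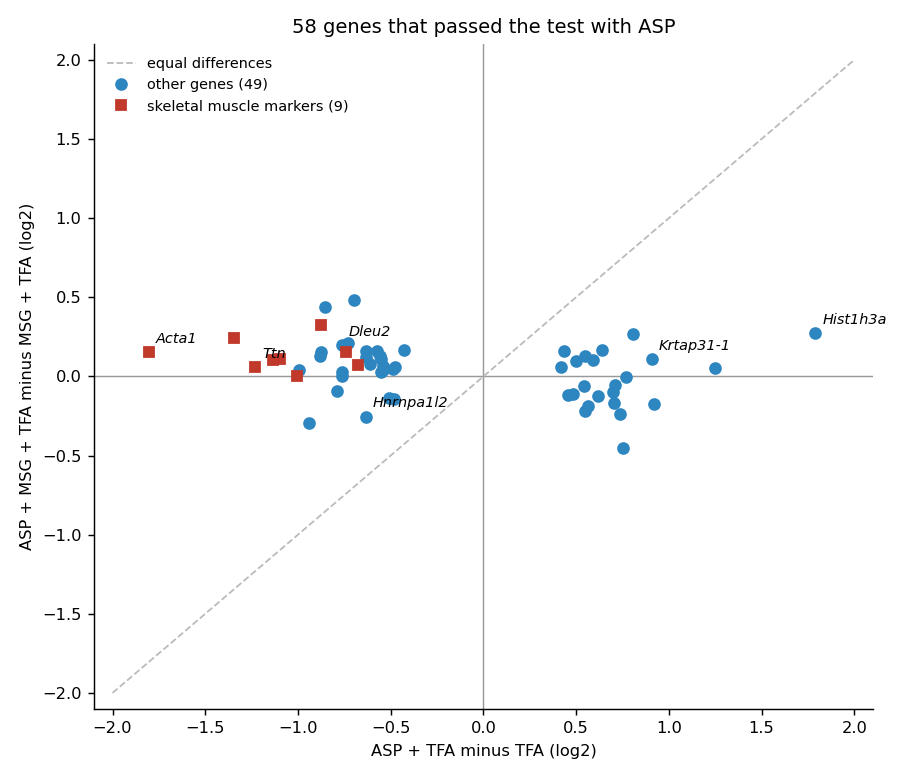
Log2 difference made by aspartame in mice without MSG (horizontal axis) and with MSG (vertical axis, other arrays) for the 58 genes that passed without MSG; squares are skeletal muscle markers and the dashed line marks equal differences. The points spread from -1.80 to 1.79 horizontally and only from -0.45 to 0.48 vertically.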

How the data were processed

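Liver RNA of 12 pools (4 diets, 3 pools each of 5 mice) was hybridised to Affymetrix Mouse Gene 1.0 ST arrays. Per the labels, the authors summarised the arrays with GCRMA and quantile normalization in Partek and deposited linear intensity values, which ranged from 14.8 to 68604 over 241576 probe sets. Log2 was taken with nothing added. GEO's platform annotation gave 1 symbol to 212138 probe sets, several to 4672 and none to 24766, and the gene value was the mean of the probe sets with 1 symbol (20422 genes, median of 8 probe sets, 2290 genes on 1). No file holds the authors' own comparisons.

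One mean per diet was fitted over the 12 arrays in limma 3.58.1 (R 4.3.3), with Benjamini-Hochberg adjustment at 0.05, and for probe sets also a 1.4-fold change. Figures were drawn with matplotlib 3.10.9 (Python 3.11.15). The fit was tested on simulated data. Nothing says how the pools were formed beyond the mice in them, so that p-values reflect differences among these pools only, and precision is limited by how few arrays there are. Named were all genes that passed except unnamed models and odour receptors, genes of passing probe sets, the 12 highest and 12 lowest brighter genes with separated pools and an unadjusted p under 0.01, in each list the 2 to 4 members of smallest p, and liver genes of the study. The comparison, lists and rules were chosen with earlier results of these data known. Alternatives covered the arrays fitted, variance model, array weights, normalization, a signal filter, thresholds, the way probe sets were combined and each array left out. Some genes of the lists were not analysed here.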

Additional observations from a re-analysis of the deposited data

Results flagged for a closer look

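For 3 named genes that had passed with aspartame, limma's interaction term with MSG had an adjusted p under 0.05. The term uses the same arrays that chose these genes, so that its values are a description. It was -0.87 for Csnk2a1-rs2 (adjusted p = 0.0222), whose MSG + TFA pools were at 5.61, 5.76 and 5.71 and ASP + MSG + TFA pools at 5.56, 5.42 and 5.61, a difference of -0.17 against 0.70 without MSG. For Dleu2 it was 0.96 (adjusted p = 0.0365), with MSG + TFA pools at 8.11, 8.11 and 8.26 and ASP + MSG + TFA pools at 8.28, 8.31 and 8.50, a difference of 0.20 against -0.76. For Tas2r109 it was -0.75 (adjusted p = 0.0295), with pools at 6.63, 6.64 and 6.52 against 6.47, 6.37 and 6.38, a difference of -0.18 against 0.56. In each of these genes the MSG + TFA pools had moved from TFA in the direction of the ASP + TFA pools, and all 3 genes were read by 1 probe set.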

How the results depend on the processing

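The counts of genes (23 higher, 35 lower) and of probe sets (2 and 18) moved with most choices. Genes higher and lower were 7 and 14 with only the 6 arrays compared, 1 and 0 with no moderation of the variance, 394 and 276 with array weights, 4 and 3 with brighter probe sets only, 6 and 12 with the median of probe sets, 0 and 0 with the brightest probe set, and 1361 and 708 at an unadjusted p under 0.05. Probe sets higher and lower were 0 and 5 with the 6 arrays, 1 and 0 with no moderation, 1 and 2 with array weights, 0 and 0 with brighter probe sets only, 1 and 4 with all probe sets of the table, and 9324 and 8303 at an unadjusted p under 0.05 and 1.4-fold. Without the 3 arrays with the most acinar transcripts, an alternative chosen after seeing the data, 8 genes were higher and 26 lower, 22 of them among the 58, and 0 and 0 probe sets. With each array left out in turn, 3 to 25 genes were higher and 4 to 37 lower, and 0 to 5 and 0 to 27 probe sets. Centring arrays on their medians gave 20 and 38 genes and quantile normalization once more 20 and 37. The replicate block gave 44 and 37 genes, 53 of them among the 58, and 0 and 0 probe sets. Same-numbered TFA and ASP + TFA pools correlated at 0.28, 0.09 and 0.35 in their deviations, each its own number's best, but the numbers are not known to pair pools.

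Of 3155 values of single named genes under these alternatives, 2741 kept direction and side of the threshold, 311 lost the call, 79 gained one and 24 were turned in sign, the last by the choice of probe sets in all but Pvalb (0.005 without ASP + TFA pool 2, with -0.131 to 0.005 over the arrays left out). With the brightest probe set the difference was 0.274 for Myh2, 0.023 for Neb, -0.152 for Zfp280b, 0.063 for Pcbd2, 0.119 for Asns, 0.043 for Otc, -0.076 for Notch1, 0.14 for Gtf2f1, -0.049 for Ldha, -0.015 for Pcx, -0.045 for Gstm1, 0.317 for Ddit3, -0.076 for Npas2, -0.049 for Gm129, -0.062 for Vmn2r116, 0.375 for Actn3, 0.018 for Tnni2 and 0.046 for Mylpf. With the median of probe sets it was 0.103 for Otc, 0.033 for Ugp2 and 0.145 for C1qa, and with brighter probe sets only 0.027 for Pex10 and 0.046 for Mylpf. The cause was not tested. Of the 25 named genes that passed, 0 kept the call under all alternatives but the added one; Krtap31-1 lost it only with no moderation and the brightest probe set, with adjusted p from 0.000574 to 0.0789. Genes near the lower end of the intensity scale are the least certain.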

Other observations

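Acute phase genes, chosen after their values were seen, split the ASP + TFA pools. Lcn2, the iron-binding protein lipocalin 2, stood at 8.48, 8.58 and 7.42 in the TFA pools and 10.98, 10.88 and 7.55 in the ASP + TFA pools. Saa2, a serum amyloid, was at 10.41, 10.81 and 9.03 against 13.36, 13.12 and 8.68, and Orm2, an orosomucoid, at 9.41, 9.49 and 8.60 against 10.57, 10.99 and 8.26. In all 3 genes ASP + TFA pools 1 and 2 lay above every TFA pool, while ASP + TFA pool 3 lay near or below the lowest of them, which was TFA pool 3. The 3 genes did not pass (adjusted p = 0.564, 0.700 and 0.767). The mean of 24 acute phase genes ran the same way, with 11.31, 11.11 and 10.43 in the ASP + TFA pools against 10.67, 10.76 and 10.41.

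No marker of the other cell types of liver and blood passed. Means of cholangiocyte markers were 6.81 to 6.85 with ASP + TFA and 6.72 to 6.77 with TFA, those of sinusoidal endothelium 8.80 to 8.99 and 8.87 to 8.93, and those of stellate cells 7.85 to 8.03 and 7.90 to 7.94. The pools of the diets did not overlap in the cholangiocyte mean, nor in that of 2 erythroid markers, which was 9.40 to 9.57 with ASP + TFA and 9.59 to 9.67 with TFA. They overlapped in every single marker of both lists, and of the cholangiocyte markers 3 were higher and 3 lower (median 0.03). All 4 neutrophil markers were higher in mean with ASP + TFA, with a median of 0.06, and the pools of the diets overlapped in their mean (6.05 to 6.25 against 5.96 to 6.13). Lymphocyte means were 5.91 to 6.06 against 5.93 to 6.06. By limma 0 of these markers passed (0.284% of all genes did). At an unadjusted p under 0.05, 1 cholangiocyte and 1 neutrophil marker were higher and 1 stellate cell marker lower (6.66% and 3.47% of all genes).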
